A study of Mus musculus with 2 samples.

Results

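The 10 genes described here, Foxn1, Fezf2, Aire, Ccl25, Dll4, Psmb11, Prss16, Ly75, Krt5 and Krt8, are genes by which thymic epithelial cells are recognised. They were chosen by name, out of 21938 protein-coding genes of the mouse annotation GENCODE M21. For each gene the open chromatin was read within its body and 50000 bp on either side. The data are DNase I-seq maps of whole, untreated thymus. The mice were males of B6CASTF1/J, the F1 hybrid of C57BL/6J and CAST/EiJ, at an age of 2 months. There is 1 group of 2 samples, replicate 1 and replicate 2. The labels number them as biological replicates but give both the same donor identifier, so whether they are separate animals is not certain. All values therefore describe these 2 samples, with SDs over n = 2, and no test between samples was possible.

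DNase I cuts DNA where regulatory proteins have displaced nucleosomes, so a peak of cuts marks an accessible promoter or enhancer, and a short protected gap within a peak is called a footprint. Thymic epithelial cells are the stromal cells that attract progenitors to the thymus, instruct them to become T cells and select them on self peptides. Cortical epithelium directs commitment and positive selection, and medullary epithelium displays tissue antigens that remove self-reactive cells. The transcription factor Foxn1 drives the epithelial programme, and thymocytes far outnumber the epithelium in the whole organ.

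The labelled tissue was checked against markers. All 12 thymocyte markers, among them Cd3e, Cd4, Cd8a, Rag1 and Ptcra, had a peak at the promoter in both replicates, with a median score of 6.27. Such peaks were present for 2 of 6 B cell, 1 of 7 dendritic cell and 2 of 5 macrophage markers. For fibroblasts it was 2 of 5 and for endothelium 3 of 5. Ms4a1, Itgax, Csf1r, Dcn and Cdh5 had none. Of all protein-coding genes, 59.0% (12935 of 21938) had such a peak, so the endothelial share of 60.0% was near that of all genes. Strict peak lists, in which 100% of peaks held a base at a false discovery rate (FDR) of at most 0.001, had 63832 peaks in replicate 1 and 67929 in replicate 2. Looser lists had 91754 and 100264, of which 70.9% and 69.3% reached that limit. They did not hold every strict peak: with overlapping entries joined, 1.63% of strict peaks in replicate 1 and 1.37% in replicate 2 overlapped no looser peak. The number of cuts sequenced is not stated in the files. In a whole organ, fewer cells of a type and weaker opening per cell cannot be told apart, and no file says which cells gave a peak.

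Of the 10 genes, 4 had an open promoter: Aire, Ccl25, Prss16 and Ly75. A promoter was called open when both replicates had a strict peak at most 1000 bp from any transcription start site (TSS) that the annotation gives the gene. The same rule called 59.0% of all protein-coding genes (12935 of 21938). A further gene, Dll4, had a strict promoter peak in replicate 1 alone, a state that 1.09% of all genes showed in replicate 1 and 1.61% in replicate 2. Foxn1, Fezf2, Psmb11, Krt5 and Krt8 had no promoter peak in either list of either replicate. In the looser lists, 5 of the 10 genes had a promoter peak in both replicates, against 62.7% of all genes.

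The sequences below carry the promoter results. They are the strand of each gene, 5' to 3', from the RefSeq copy of GRCm38.p6 (mm10), which holds the C57BL/6J alleles. Capitals mark bases inside footprints of both replicates. The Ccl25 region lies inside the first, untranslated exon of an Elavl1 transcript, so only its footprints are shown, each cut to at most its last 30 bases. The first 3 lines are the Ccl25 footprints at chr8:4325026-4325055, chr8:4325105-4325134 and chr8:4325195-4325217 (plus strand). The Ly75 line covers chr2:60383304-60383440 and the Aire line chr10:78043611-78043680, each ending at the base before the gene's 5' end. The Prss16 line, chr13:22006413-22006560, ends at the base before an internal start. Ly75, Aire and Prss16 lie on the minus strand.
Ccl25 far footprint: GCGACGGCGACGGCGACGGCGACGGCTGCG
Ccl25 middle footprint: CGCCCCCTGCTCAGCGCGCTCTGCTATTGG
Ccl25 footprint at the start: GCGCGGCGTAGGCGGGACTTCCT
Ly75 upstream part: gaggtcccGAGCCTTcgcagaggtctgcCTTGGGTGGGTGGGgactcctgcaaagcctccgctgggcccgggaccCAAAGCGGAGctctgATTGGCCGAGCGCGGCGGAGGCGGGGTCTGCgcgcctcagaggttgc
Aire upstream part: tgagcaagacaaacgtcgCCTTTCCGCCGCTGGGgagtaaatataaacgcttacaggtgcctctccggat
Prss16 upstream of the internal start: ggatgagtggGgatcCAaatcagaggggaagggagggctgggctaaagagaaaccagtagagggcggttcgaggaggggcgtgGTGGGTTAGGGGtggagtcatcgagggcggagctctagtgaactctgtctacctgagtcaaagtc

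Among the regulators, Aire had an open promoter, and Foxn1 and Fezf2 did not. Aire encodes the factor that turns on tissue-restricted antigens in medullary epithelium. Its promoter peak, chr10:78043461-78043680, scored 5.23 in replicate 1 and 3.99 in replicate 2 (mean 4.61 ± 0.874), above the score of 34.0% of the open genes. Replicate 1 was the higher, by less than the spread over the genome: the log2 difference, replicate 2 minus replicate 1, was -0.39, while all 51709 regions shared by the replicates had a median of -0.22 and an SD of 0.46. The peak spans the start shared by the coding transcripts of Aire. The nearest TSS of another protein-coding gene, Dnmt3l, lies 1174 bp from the peak.

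Fezf2, the second factor that drives tissue antigens in the medulla, had no strict peak in its locus in either replicate and no footprint. Foxn1 had no promoter peak, and no base within 1000 bp of its single TSS was listed at an FDR under 0.05. This also held for Fezf2, Psmb11, Krt5 and Krt8. Among the genes with no strict promoter peak in either replicate, 84.0% (7062 of 8411) showed the same, so these 5 promoters are like most that had no peak.

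Open regions did lie inside Foxn1, far from its start. The strongest, chr11:78360581-78360780, scored 2.96 and 3.29 (3.12 ± 0.239), 25878 bp downstream of the 5' end. It lies in intron 8 and reaches 4 bases into exon 8 of 9. A weaker region in intron 8, chr11:78360161-78360340, scored 1.69 and 2.41, and one over exon 9, chr11:78358421-78358620, scored 1.43 and 1.40. In each of these 3 regions both replicates had a strict peak, and each held 2 or 3 footprints of replicate 1 that overlapped one of replicate 2. The intronic part of the strongest region, chr11:78360581-78360776 on the minus strand, is shown because it is the highest open region within a gene whose promoter had no peak.
Foxn1 intron 8 region: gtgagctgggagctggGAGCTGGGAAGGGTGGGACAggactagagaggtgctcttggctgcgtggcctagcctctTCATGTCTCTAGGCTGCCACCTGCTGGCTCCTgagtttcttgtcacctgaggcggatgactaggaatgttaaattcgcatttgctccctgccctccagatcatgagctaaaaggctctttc

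**Figure D1:**
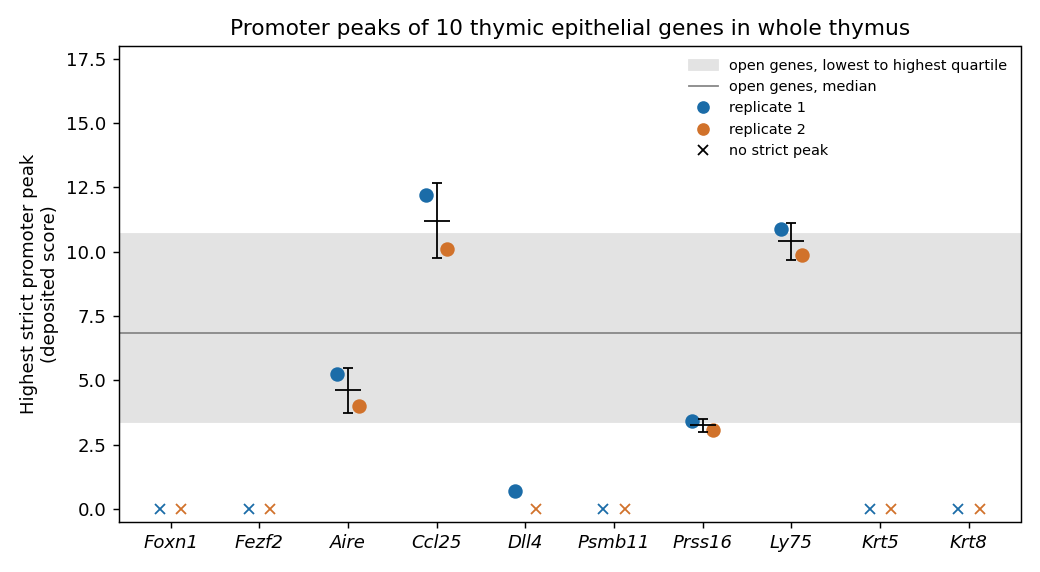
Highest strict promoter peak of each gene (deposited score, y axis) in replicate 1 (blue) and replicate 2 (orange), with mean and SD in black over n = 2; crosses at 0 mark no strict peak. The grey band runs from the lowest to the highest quartile of the open genes, 3.36 to 10.7, with the median of 6.83 as a line; the mean of Ccl25 lies above the band and that of Prss16 just below it.

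Of the signals to thymocytes, Ccl25 had the highest promoter score of the 10 genes and Dll4 one near the limit of detection. Ccl25 encodes the chemokine that draws progenitors through their receptor Ccr9. The peak, chr8:4325021-4325260 in replicate 1, scored 12.2 and 10.1 (11.2 ± 1.46). It ranked 2934 of 12935 open genes. The replicates differed by -0.27 on the log2 scale, near the median of all shared regions.

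The Ccl25 peak is also the promoter of another gene. Elavl1, which encodes a widely expressed RNA-binding protein, is transcribed in the opposite direction. One of its transcripts starts inside the peak at position 4325086, 124 bp from the first Ccl25 start, and another starts 153 bp beyond the peak. The score therefore cannot be told apart between the 2 genes. Ccl25 was the only one of the 4 open genes whose highest peak lay within 1000 bp of another gene's TSS. Over all open genes, 33.2% had such a peak when every kind of gene was counted and 20.9% when protein-coding genes alone were. A pair of coding Ccl25 transcripts starts 24378 bp further downstream, and no peak lay within 1000 bp of that start.

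Dll4, the Notch ligand of cortical epithelium that commits progenitors to the T lineage, had a strict promoter peak of 0.689 in replicate 1, 84 bp upstream of its first start, and none in replicate 2. The lowest FDR at its promoters was 0.000329 in replicate 1 and 0.0037 in replicate 2, so that only replicate 1 passed the strict limit. In the looser lists the highest promoter peaks scored 0.719 and 0.620, but at different places. Starts of Gm14207, a noncoding transcript on the opposite strand, lie 27 and 48 bp from the strict peak. The peak sequence, chr2:119325591-119325700 on the plus strand, is shown because it decides the state of Dll4. It has no base in a footprint of both replicates.
Dll4 upstream peak of replicate 1: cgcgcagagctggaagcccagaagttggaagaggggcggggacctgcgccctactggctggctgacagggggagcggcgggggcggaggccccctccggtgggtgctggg

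Stronger regions lay around Dll4. One over exon 3, chr2:119327061-119327260, scored 1.87 and 1.82 and is 1376 bp downstream of the 5' end. In intergenic sequence, chr2:119300181-119300420 scored 6.79 and 4.75 (5.77 ± 1.44), 25484 bp upstream, and chr2:119337881-119338260 scored 6.04 and 4.07 (5.06 ± 1.40), 12286 bp downstream of the 5' end. Both were strict peaks in both replicates, higher in replicate 1, and well above the promoter peak of Dll4 itself. With RefSeq transcript starts, which add a predicted one near the exon 3 region, Dll4 was open.

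Of the genes for antigen uptake and processing, Ly75 and Prss16 had open promoters, and Psmb11 did not. Ly75 encodes an endocytic receptor of cortical epithelium and dendritic cells. Its peak, chr2:60383221-60383440, scored 10.9 and 9.86 (10.4 ± 0.709), above 72.8% of open genes. It covers the starts of both annotated transcripts in replicate 1 and one of them in replicate 2. No other gene's TSS lay within 1000 bp, the nearest coding one being that of Pla2r1, 40867 bp away. Among the 10 genes it was thus the highest promoter peak that belongs to 1 gene alone.

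Prss16 encodes the thymus-specific serine protease of cortical epithelium. It was open only inside the gene. Its highest peak, chr13:22006361-22006560, scored 3.43 and 3.07 (3.25 ± 0.255) and covers the start of a shorter coding transcript, 3330 bp downstream of the 5' end and within intron 7 of the full-length one. A second region, chr13:22005941-22006220, lies over exon 8 and scored 3.18 and 2.51. Neither replicate had a strict peak within 1000 bp of the 5' end, where the full-length transcript starts. Of all open genes, 7.82% had no strict peak near the 5' end in both replicates. With RefSeq transcript starts, which do not include the internal one, Prss16 was not open.

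Psmb11 encodes the catalytic proteasome subunit found only in cortical epithelium. It had no promoter peak at either of its starts. The nearest shared region, chr14:54617941-54618140, scored 6.79 and 4.60 (5.70 ± 1.55) and is the promoter of the neighbouring gene Psmb5, which encodes the subunit of the constitutive proteasome that Psmb11 replaces. It lies 3293 bp from the nearest Psmb11 start. The 2 neighbours thus differed in state within a few kilobases, in both replicates.

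The keratins that mark the epithelial compartments had no promoter peak. Krt5, of medullary epithelium, had no region shared by the replicates within 50000 bp, and 1 weak strict peak of 0.456 in replicate 2 alone. Krt8, of cortical epithelium, had none at the promoter, and its nearest shared region lay 16082 bp away. Downstream of Krt8 a group of 5 intergenic regions stretched from 16182 to 30642 bp from its 5' end, and the farthest, chr15:101973741-101973940, scored 4.52 and 4.12 (4.32 ± 0.281). The promoter of Krt18, the keratin that pairs with Krt8, lies 23798 bp upstream and was open at 0.852 and 0.644.

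The distance to the nearest open region varied widely among the 6 genes that were not open. It was 1277 bp for Dll4, 3293 bp for Psmb11, 10963 bp for Foxn1, 16082 bp for Krt8, 59883 bp for Krt5 and 61504 bp for Fezf2. Over all protein-coding genes that were not open, the median was 38696 bp. Thus 4 of these genes lay nearer to an open region than the median gene of that state, and Krt5 and Fezf2 farther.

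Within the 10 loci, the replicates shared 79 regions, out of 96 strict peaks in replicate 1 and 87 in replicate 2. Prss16 had 14, Foxn1 and Psmb11 13 each, Aire 10, Ly75 and Dll4 9 each, Krt8 7, Ccl25 4, and Krt5 and Fezf2 0. The median locus of all protein-coding genes held 5.00, and 17.7% of loci held none. Per 100 kb, which allows for gene length, Prss16 (13.0) and Psmb11 (12.0) stood above 94.3% and 92.6% of genes, and Ccl25 (2.97) was below the median of 3.84. Density and promoter state did not go together in every gene: the Psmb11 and Foxn1 loci were dense with promoters that were not open, the Prss16 locus was dense and Ccl25 sparse, both with open promoters.

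Few of these regions lay in or at the 10 genes themselves, but each locus also took in 50000 bp on either side of the gene. The same split over all protein-coding loci is not given, so it is not a trait of these genes. Each region was counted once, first as a promoter of the named gene, then of a coding and of a noncoding neighbour, and then by the body it lay in. Of the 79, 28 lay at the promoter of another protein-coding gene, 27 were intergenic, 11 lay in the body of another gene, 3 at promoters of noncoding genes, and the rest at the genes' own promoters (6), over their exons (2) or in their introns (2). The Dll4 region over exon 3 is among the noncoding promoters, since it lies near a Gm14207 start, and the Ccl25 peak, also at an Elavl1 start, is among the own promoters. In 5 loci the region with the highest mean was the promoter of a neighbour. It was Hist1h4i at 13.6 ± 3.86 for Prss16, Vps18 at 12.7 ± 2.61 for Dll4, Pigs at 10.7 ± 1.31 for Foxn1, Pfkl at 10.4 ± 0.573 for Aire, and the Cdh24 and Gm17606 promoter at 9.66 ± 2.03 for Psmb11. In the Psmb11 locus this order held in replicate 1 alone: in replicate 2 that promoter scored 8.23, and a region in the body of 4931414P19Rik 8.55. Only the Ccl25 and Ly75 loci had their own promoter as the highest region, and in Krt8 it was the intergenic region above.

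Outside promoters, regions in the Prss16 and Psmb11 loci scored highest and did not differ beyond their spread. In the Prss16 locus it was chr13:22050961-22051180, in intergenic sequence near the histone genes, at 10.5 and 8.97 (9.71 ± 1.05). In the Psmb11 locus it was chr14:54603321-54603620, in the body of 4931414P19Rik, at 10.7 and 8.55 (9.62 ± 1.51). Near Ccl25, a region in the body of Elavl1 scored 5.03 ± 0.0544. Near Ly75 one in Pla2r1 scored 3.70 ± 0.664, near Foxn1 one in Slc13a2 3.37 ± 0.00764, and near Aire an intergenic one 2.35 ± 0.479. Which gene such a region serves was not measured.

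**Figure D2:**
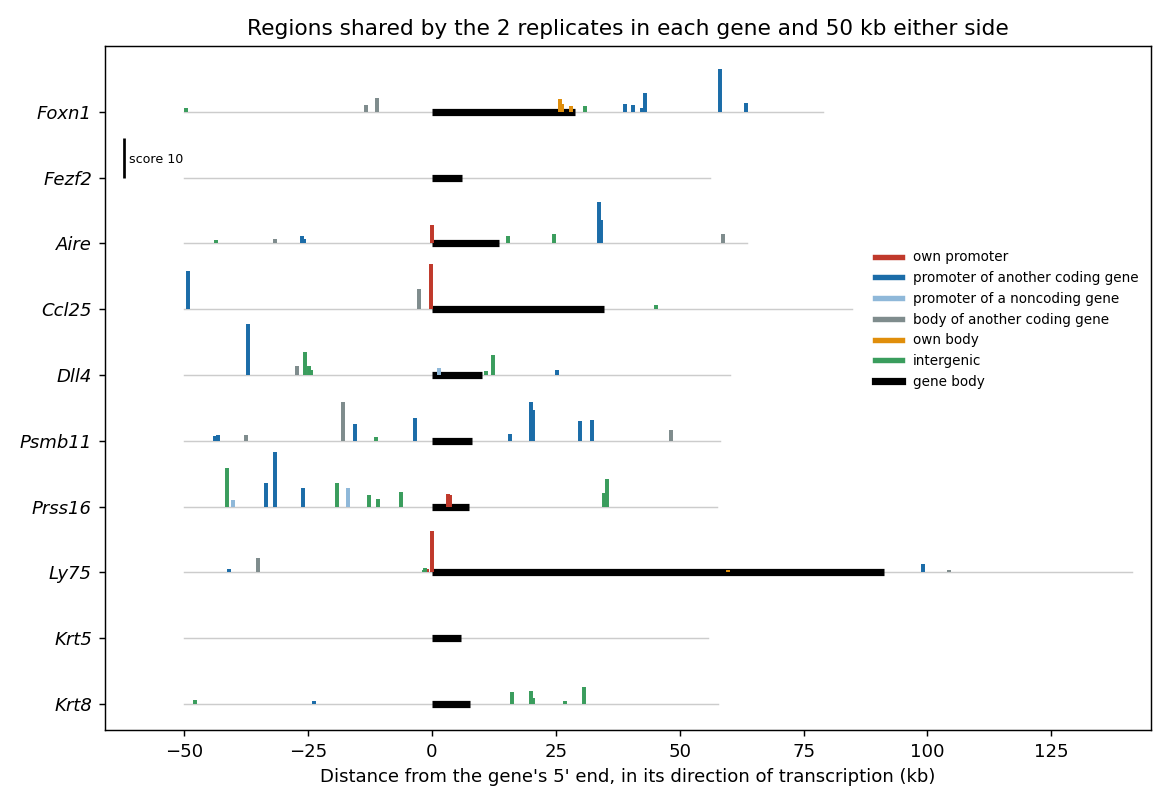
Regions shared by the 2 replicates in each locus, by distance of the region's centre from the gene's 5' end (x axis, kb, transcription to the right); bar height is the mean score, with a scale bar of 10, and black bars are gene bodies. Red bars, the genes' own promoters, are present for Aire, Ccl25, Prss16 and Ly75, and the Krt5 and Fezf2 loci hold no bar.

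Footprints were found in all 4 open promoters. In the highest promoter region, replicate 1 and replicate 2 had 3 and 6 footprints for Ccl25, 3 and 6 for Aire, 7 and 4 for Ly75, and 4 and 6 for Prss16. The footprints of replicate 1 that overlapped one of replicate 2 numbered 3, 3, 5 and 4. Over 12906 open promoters with a shared region, the median was 5 in each replicate and 4 shared, so the 4 genes lie around the typical promoter. The widest shared footprint of Aire, 44 bp in replicate 1 and 47 bp in replicate 2, covers the start of the coding transcripts, and one of Ccl25 covers its first start.

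Short motifs were searched on both strands in the central 200 bp of the highest promoter region. CCAAT, the box bound by the factor NF-Y, was present in Ccl25 and Ly75, in 30.4% of 12906 promoter regions. In both genes it appears in the lines above as ATTGG, its reverse complement, inside a footprint of both replicates (bases 26 to 30 of the middle Ccl25 line and bases 91 to 95 of the Ly75 line). Of the 4 open genes, only Aire held TATAAA, the TATA box, which 2.17% of promoter regions held. It ends 24 bp before the 5' end and lies outside the shared footprints. The coding transcripts of Aire start 30 bp downstream of that 5' end. Only Prss16 held TGANTCA, the AP-1 motif, present in 2.26%, as TGAGTCA ending 6 bp before the internal start, outside the shared footprints.

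GACGC, the core bound by FOXN1, was found in Ccl25 alone of the 4 promoter regions and in 41.7% of all. A second window took 300 bp at the 5' end of every gene, 250 bp before it and 50 bp after. There GACGC was present in Aire, Prss16, Ccl25 and Krt5, and in 31.0% of all genes. GGGCGG, bound by SP and KLF factors, was present in Prss16 and in 61.8% of regions. A kappaB-like motif, GGG and CC with any 5 bases between, was present in Aire and Ly75 and in 61.6%. CCGGAAG (ETS, 17.0%), TGTGGT (RUNX, 7.59%) and CCACNAGG (CTCF, 4.71%) were in none of the 4. GGGCGG and the kappaB-like motif can share bases, as can the others where their letters allow. A match is a description of letters and not a binding site.

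**Figure D3:**
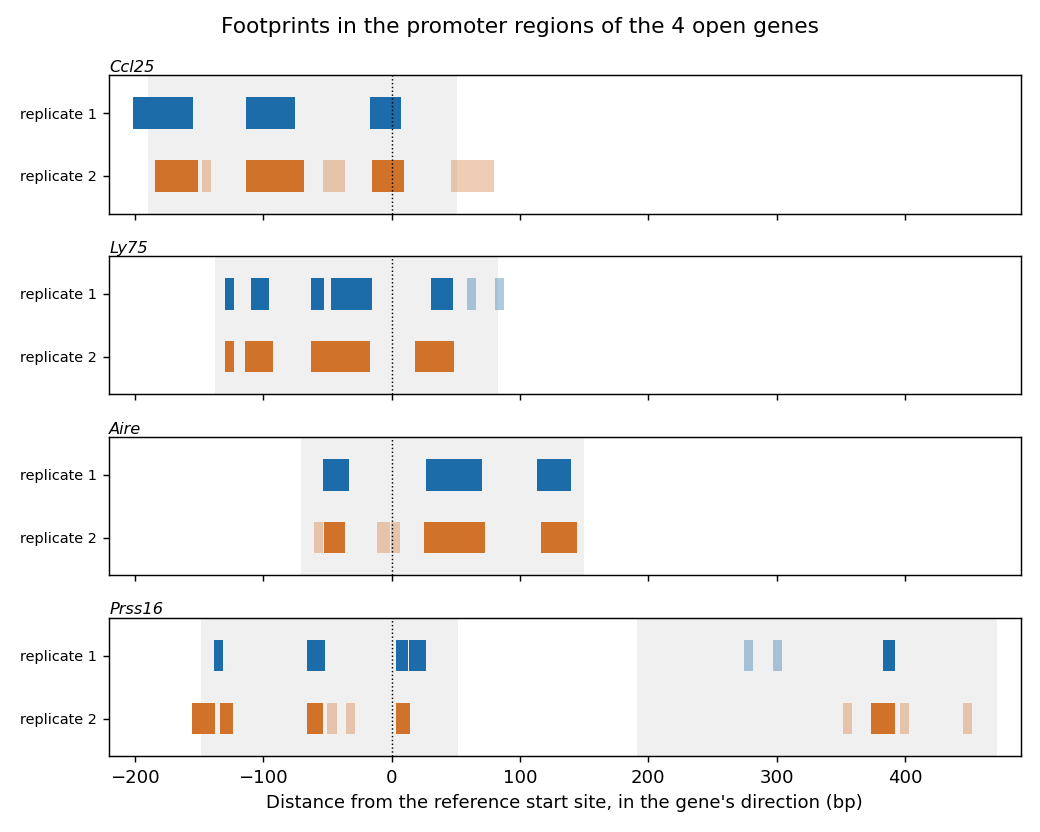
Footprints of replicate 1 (blue) and replicate 2 (orange) in the promoter regions (grey) of the 4 open genes, by distance from the start site in bp; full colour marks footprints that overlap one of the other replicate and pale colour those that do not. For Ccl25, Ly75 and Aire the reference is the 5' end and for Prss16 the internal start; a weaker shared region of Ly75 farther upstream is not drawn.

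CpG dinucleotides, dense at the promoters of widely expressed genes, were counted from 500 bp before to 500 bp after each 5' end. Ccl25 had 115, Dll4 58, Ly75 50, Aire 35, Krt8 31, Krt5 23, Foxn1 16, Prss16 14, Fezf2 9 and Psmb11 8, and the median of all genes was 41.0. For Fezf2, Psmb11, Prss16 and Ccl25 the counts leave out other coding starts. The nearest of those left out lie 2230, 3877, 3330 and 24378 bp from the 5' end. Over all protein-coding genes, 12.8% were open in the lowest of 4 quartile groups by CpG count, 48.4% in the second, 85.6% in the third and 91.0% in the highest. Of the 5 genes in the second group, Aire and Prss16 were open, Prss16 at its internal start. Dll4, in the third group, was not open, whereas most genes with as many CpGs were.

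**Figure D4:**
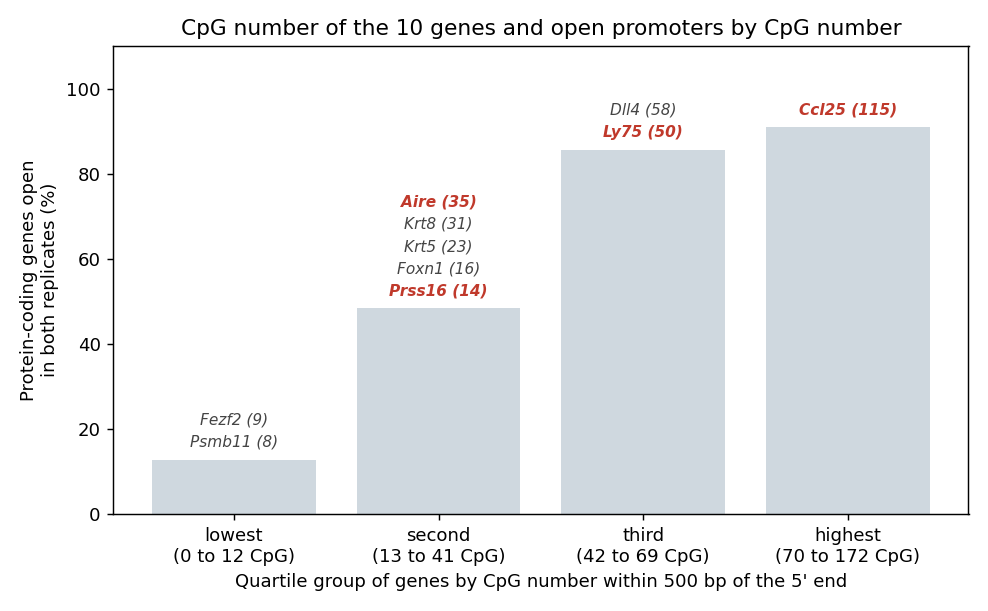
Share of protein-coding genes with an open promoter (y axis, %) in each quartile group of genes by CpG count around the 5' end (x axis), with the 10 genes written above their group and their CpG count in brackets; red bold names are open. The share rises from 12.8% to 91.0%, and 7 of the 10 genes lie in the 2 lower groups.

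Related genes are given by list, read against the 59.0% of all genes. Of 8 regulators of thymus organ formation, 4 were open, with low scores, among them Tbx1 at 2.25 and 2.57 and Eya1 at 0.644 and 0.577. Hoxa3 and Pax1 had no strict peak. Of 7 other genes of cortical epithelium, 5 were open, led by the lysosomal protease gene Ctsl at 11.9 and 7.44, and followed by Krt18 and by Enpep, an aminopeptidase gene, at 0.830 and 0.626. In this list only Cxcl12, a chemokine gene, had no strict peak in either replicate. Apart from Ctsl, the open cortical genes scored under 1.

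Of 10 other genes of medullary epithelium, 4 were open. Relb, which encodes an NF-kappaB subunit needed for medullary cells, scored 8.97 and 8.19, the tight junction gene Cldn4 5.18 and 3.12, and Tnfrsf11a, which encodes the receptor RANK, 2.30 and 2.60. The chemokine genes Ccl19 and Ccl21a had no strict peak. Of 7 general epithelial genes, 3 were open: Elf3 at 1.42 and 2.46, the cadherin gene Cdh1 at 1.78 and 2.01, and Epcam at 1.90 and 1.53. Cldn7 and Krt19 had none. The median score with absent peaks counted as 0 was 0.197, 0.551, 0.189 and 0.198 for these 4 lists in the order given and 0.172 for the 10 genes, against 1.96 for all protein-coding genes.

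The partners of these genes on the thymocyte side were all open. The 6 receptors of epithelial signals had a median of 4.98. The Cxcl12 receptor Cxcr4 scored 13.7 and 8.16, the Dll4 receptor Notch1 8.46 and 6.17, and Kit 5.89 and 4.76. The Ccl25 receptor Ccr9 scored 3.61 ± 1.21, and Il7r was the lowest at 0.778 and 0.997. Ccr9 and Notch1 were not open when the 5' end alone counted. The 4 relatives of Psmb11 were open too. Psmb9 scored 22.6 and 15.2, at a peak it shares with Tap1, Psmb8 10.0 and 4.63, and Psmb5 as given above. All 4 other Notch ligands were open at low scores, the highest being Jag2 at 2.78 and 1.94, Dll3 at 1.87 and 2.07, and Jag1 at 0.852 and 0.717. The lowest, Dll1, scored 0.696 and 0.644, close to the 0.689 of Dll4 in replicate 1. Of the 5 ligands only Dll4 was not open in the strict lists, and in the looser lists it had a promoter peak in both replicates.

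**Figure D5:**
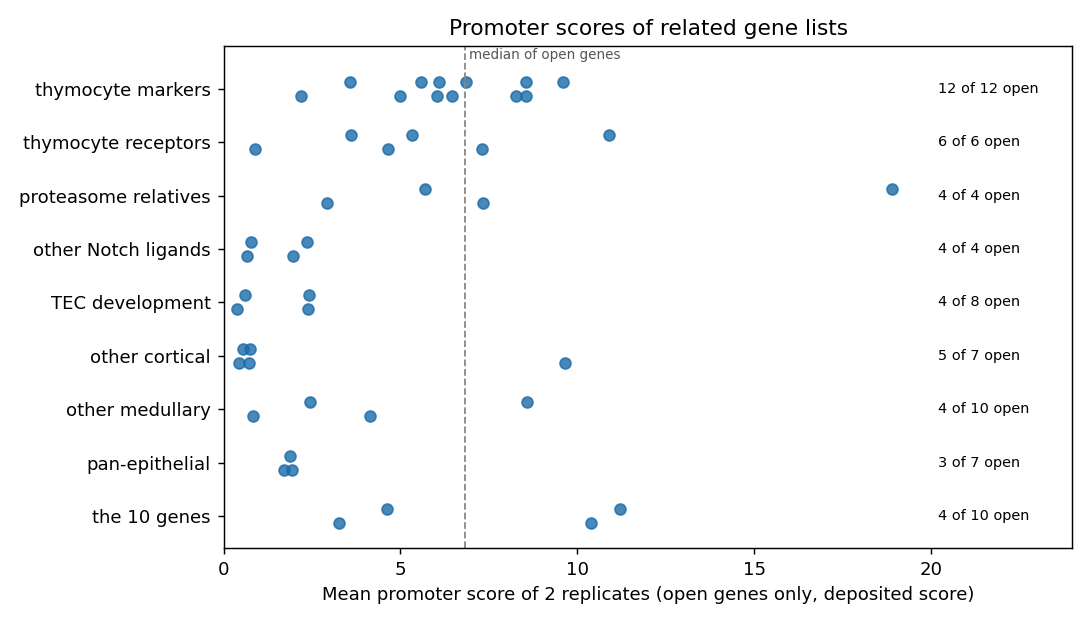
Mean promoter score of 2 replicates (x axis, deposited score) for each open gene of 9 gene lists, with the number open at the right; genes that were not open have no point. The dashed line is the median of all open genes, 6.83, which Ccl25 and Ly75 exceed among the 10 genes and which no open gene of the other Notch ligand, organ formation or general epithelial lists reaches.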

How the data were processed

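DNase I-seq of whole thymus was analysed in 1 group of 2 replicates. The deposited files are on mm10, per the labels. The authors' peak lists hold a signal score for each peak, and these scores were whole multiples of a step (0.007407 in replicate 1 and 0.006077 in replicate 2, 100% within 0.1 step for scores under 5). Q-values (FDR) come from the deposited tracks, which leave out stretches at 0.05 or more. Footprints were deposited with a constant value of 0.01 and served as positions. The aligner is not given in the sources used here, nor is the peak caller or the footprint tool. How reads of the CAST/EiJ alleles mapped to the C57BL/6J reference is not given either.

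Overlapping entries of a list were joined (1602 and 1090), keeping the highest score, and an overlap of 1 bp made peaks of the replicates shared. TSSs came from GENCODE M21 on the 19 autosomes, X and Y, and sequences from GRCm38.p6. A region was assigned to a promoter within 1000 bp of a TSS. The calls of promoter state and shared regions were tested on simulated data. The genes, gene lists and motifs were chosen with earlier results of these data known. All 10 genes were named; of each related list, the 3 highest open genes and the first 2 in alphabetical order without a strict peak; other genes with a TSS at a promoter peak; and the highest region outside promoters of each locus. Ccr9, Dll1, Il7r and the neighbours with the highest region lie outside this rule. They and the regions within Foxn1, Dll4 and Prss16 and near Krt8 were chosen after their values were seen. A gene that the rule names is not reported here. Python 3.11.15, numpy 2.4.6, pandas 2.3.3, pysam 0.24.0, matplotlib 3.10.9 and samtools 1.23.1 were used.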

Additional observations from a re-analysis of the deposited data

How the results depend on the processing

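The number of open genes among the 10 was 4, and ranged from 3 to 5 under the alternatives. It was 5, with Dll4 added, in the looser lists and with a 2500 bp window, 4 with the 50000 highest peaks or a 500 bp window, and 3 without Prss16 when the 5' end alone counted. Without replicate 1 it was 4 and without replicate 2 it was 5. With RefSeq transcript starts, an alternative added after seeing the data, it was again 4, but Prss16 was replaced by Dll4, whose predicted RefSeq start lies near the exon 3 region. All protein-coding genes with an open promoter numbered 11923 to 13746, and 13174 and 13288 with 1 replicate alone. The open genes whose peak also lay at another gene's TSS rose from 1 to 2 with a reach of 2500 bp (Aire, with Dnmt3l) and in the looser lists (Dll4, with Gm14207). Shared regions in the loci numbered 79, 127 with 100000 bp on either side, and 53 to 98 under the other alternatives. With 1 replicate nothing can be shared, and the plain count of strict peaks was 96 in replicate 1 and 87 in replicate 2. Footprints of the 4 promoters that the replicates shared numbered 15, and 14 when wholly within the peak. Counted without sharing, replicate 1 had 17 and replicate 2 had 22. The 4 promoter scores, which were not computed with RefSeq starts, were the same with the other lists and windows and moved when a replicate was left out: Aire 3.99 to 5.23, Prss16 3.07 to 3.43, Ccl25 10.1 to 12.2 and Ly75 9.86 to 10.9; with the 5' end alone Prss16 had no value. Depth per sample is not stated, so a promoter without a peak may hold signal below the listing limit.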
